A study of Mus musculus with 15 samples.

Results

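The genes described here carry cells through mitosis, the division of the copied chromosomes between 2 daughter cells. They were chosen by name and not by a rule on the measured values, though with earlier results of these data known: 49 genes were listed, of which 47 had an array probe set with a single gene symbol. Ccnb1 and Ncapg had none and were not analysed here. Each of the 47 was measured by 1 probe set. All 47 also passed a filter on low values, which asked for a signal above the array's 40th percentile on at least 3 of the 15 arrays and which 14822 of 22180 genes passed. Cdc25c and Cenpk passed it only through the arrays of cultured cells, so that a difference was built in for these genes, and their mean on all 3 kinds of freshly isolated cells lay under the 40th percentile. For these 2 genes a difference from those cells is a lower bound, written as "at least".

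The study measured mouse myeloid cells on single-colour Affymetrix arrays, 3 arrays in each of 5 groups, and asked how CD34+ monocytes mobilised by G-CSF, a growth factor that drives myeloid cells into blood and spleen, relate to other myeloid cells. The GFW and RB groups hold spleen cells of G-CSF-treated C57Bl/6 mice that carry CD11b and CD34 and lack CD4, CD8, Ly6G, B220 and Ter119. Their labels are alike and differ in the code of the title. The GFK group holds cells of the same sort from G-CSF-treated mice labelled iNOS knockout, and the GFE group holds cells of the same sort from G-CSF-treated C57Bl/6 mice after 3 days in StemSpan medium with Flt3 ligand and SCF, growth factors for progenitors. The MDSC group, myeloid-derived suppressor cells, holds Ly6C+CD11b+ cells that were grown from C57Bl/6 marrow in the 3 cytokines G-CSF, IL-13 and GM-CSF. GFW, GFE and GFK share the first part of the array title, while RB and MDSC each have their own, so array set and group cannot be told apart for those. Ages are not given, and the labels do not say whether the arrays of a group came from separate mice or cultures. A p-value therefore reflects only how far these samples vary, and that variation may be technical.

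Entry into mitosis is driven by cyclin B and cyclin A with their kinase CDK1, followed by Polo-like and Aurora kinases that build the spindle. Kinetochores tie chromosomes to spindle microtubules, and the spindle checkpoint holds the cell until all are attached. The ubiquitin ligase APC/C with CDC20 then releases separase, which cuts the cohesin between sister chromatids, and kinesins and midzone proteins pull the cell apart. Most of these genes are silent in resting cells and are transcribed late in the cycle. Their promoters often hold a CHR element (cell cycle genes homology region), at which the DREAM complex represses and the MYBL2 and FOXM1 complexes activate, together with CCAAT boxes bound by NF-Y.

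The start site regions of 6 of the genes are shown because these elements are what many of the members share. Each runs 5′ to 3′ on the gene's strand from 100 bases before to 30 after a RefSeq start (build GRCm38.p6), with CHR letters (TTTGAA) and NF-Y boxes (CCAAT) of either strand in capitals. Ccnb2, Cdk1, Cdc20 and Top2a represent the cyclin-CDK1 switch, anaphase onset and chromosome structure. Kif23 and Cenpk stood apart from the other members in their values.
Ccnb2: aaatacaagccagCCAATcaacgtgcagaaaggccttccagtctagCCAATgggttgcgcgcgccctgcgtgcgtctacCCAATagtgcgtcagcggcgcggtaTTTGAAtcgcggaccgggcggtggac
Cdk1: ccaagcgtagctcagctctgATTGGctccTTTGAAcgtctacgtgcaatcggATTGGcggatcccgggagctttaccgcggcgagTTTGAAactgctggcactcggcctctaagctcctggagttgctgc
Cdc20: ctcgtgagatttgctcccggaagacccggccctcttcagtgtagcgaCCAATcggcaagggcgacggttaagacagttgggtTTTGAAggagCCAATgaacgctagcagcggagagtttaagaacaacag
Top2a: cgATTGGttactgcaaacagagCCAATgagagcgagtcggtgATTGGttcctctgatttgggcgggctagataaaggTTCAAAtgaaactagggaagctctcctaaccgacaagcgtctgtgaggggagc
Kif23: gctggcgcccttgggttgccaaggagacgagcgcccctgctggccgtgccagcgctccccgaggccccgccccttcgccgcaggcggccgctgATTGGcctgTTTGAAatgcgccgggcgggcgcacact
Cenpk: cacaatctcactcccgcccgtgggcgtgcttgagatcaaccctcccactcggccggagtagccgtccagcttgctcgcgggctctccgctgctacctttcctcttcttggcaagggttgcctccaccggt
The positions are chr9:70421525-70421654 on the minus strand for Ccnb2, chr10:69352883-69353012 minus for Cdk1, chr4:118437314-118437443 minus for Cdc20, chr11:99024160-99024289 minus for Top2a, chr9:61946770-61946899 minus for Kif23 and chr13:104228511-104228640 plus for Cenpk, the last for 1 of its 3 starts in RefSeq. Ccnb2 has 3 CCAAT boxes in front of a CHR element, in Cdk1 boxes and CHR elements alternate, and the Top2a element lies on the opposite strand. Kif23 holds both kinds of element. The stretch shown for Cenpk holds neither, while each of the 3 Cenpk windows of 300 bases has a CCAAT box, in that of the start shown 159 bases before it, and none has TTTGAA.

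RefSeq windows from 250 bases before to 50 after a start were at hand for 41 of the 49 listed genes, with 45 windows. TTTGAA, searched on both strands, was in 31 of the 45 windows (68.9%), against 17.9% of all 32851 windows of the same 300 bases. CCAAT was in 35 of them (77.8%), against 37.4% of all windows. Both were in 27 of the 45 member windows, against 6.95% of all. The E2F letters TTTGGCG were in 3 member windows (6.67%, against 1.56%) and TTCCCGC in 4 (8.89%, against 4.60%). Each motif was searched for separately, and overlap between matches was not tested. Of 36 distinct CHR elements in member windows, 26 lay within 50 bases of a start, in 26 genes, and 24 were on the gene's strand. These are matches of letters, and binding was not measured.

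The arrays were checked against their labels. Nos2, the gene of iNOS, was at 8.84, 8.91 and 8.92 log2 on the arrays labelled iNOS knockout and 8.09, 8.32 and 8.43 on GFW arrays, and was thus not lower in the former (difference 0.61, SE 0.12, limma adjusted p = 0.0125). Whether the probe set lies in the deleted part is not known here. Cd34, a gene of the sort gate, was at 6.99 to 7.39 on GFW arrays, 5.79 to 5.99 on RB arrays and 11.25 to 11.31 on GFE arrays. Ly6g, which the gate removes, was at 12.15 to 12.21 on GFW and 12.03 to 12.12 on GFK arrays, and at 6.19 to 6.38 on RB arrays. MDSC arrays had Ly6c2 at 12.64 to 12.75 and Itgam, the CD11b gene, at 10.28 to 10.37. No 2 arrays held identical values, and array medians lay between 5.52 and 5.72 log2.

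Nearly all mitosis genes were higher in both kinds of cultured cells than in the 3 kinds of freshly isolated cells. The fresh signal was not low for all of them. On GFW arrays the mean of Smc4 lay at percentile 94.2 and that of Mki67 at 87.6, while those of Cdc25c and Cenpk lay under 40. Averaged over the 47 genes, the log2 signal, as normalised by the authors with RMA, was 9.27 to 9.38 on the MDSC arrays and 8.55 to 8.64 on the GFE arrays. It was 6.66 to 6.96 on RB, 6.65 to 6.83 on GFK and 6.75 to 6.79 on GFW arrays. The mean was highest in MDSC for 45 of the 47 genes and in GFE for Cenph and Cenpk. Every array of MDSC and GFE lay above every array of fresh cells for 44 genes, against 15.6% of all genes tested, and Ccnb2, Kif23 and Cenpa were the exceptions. For 38 genes the MDSC, GFE and fresh arrays formed 3 tiers with no overlap, which held for 3.53% of all genes. For 46 genes, all but Kif23, every MDSC array lay above every fresh array, against 21.8% of all genes. Cdc25c and Cenpk, for which the filter built in a difference, are among the 44 and the 46 genes, and Cdc25c is among the 38. Of the fresh cells, RB had the lowest mean for 18 genes, GFK for 17 and GFW for 12. In such bulk samples, fewer cells in mitosis and less RNA per cell cannot be told apart.

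**Figure D1:**
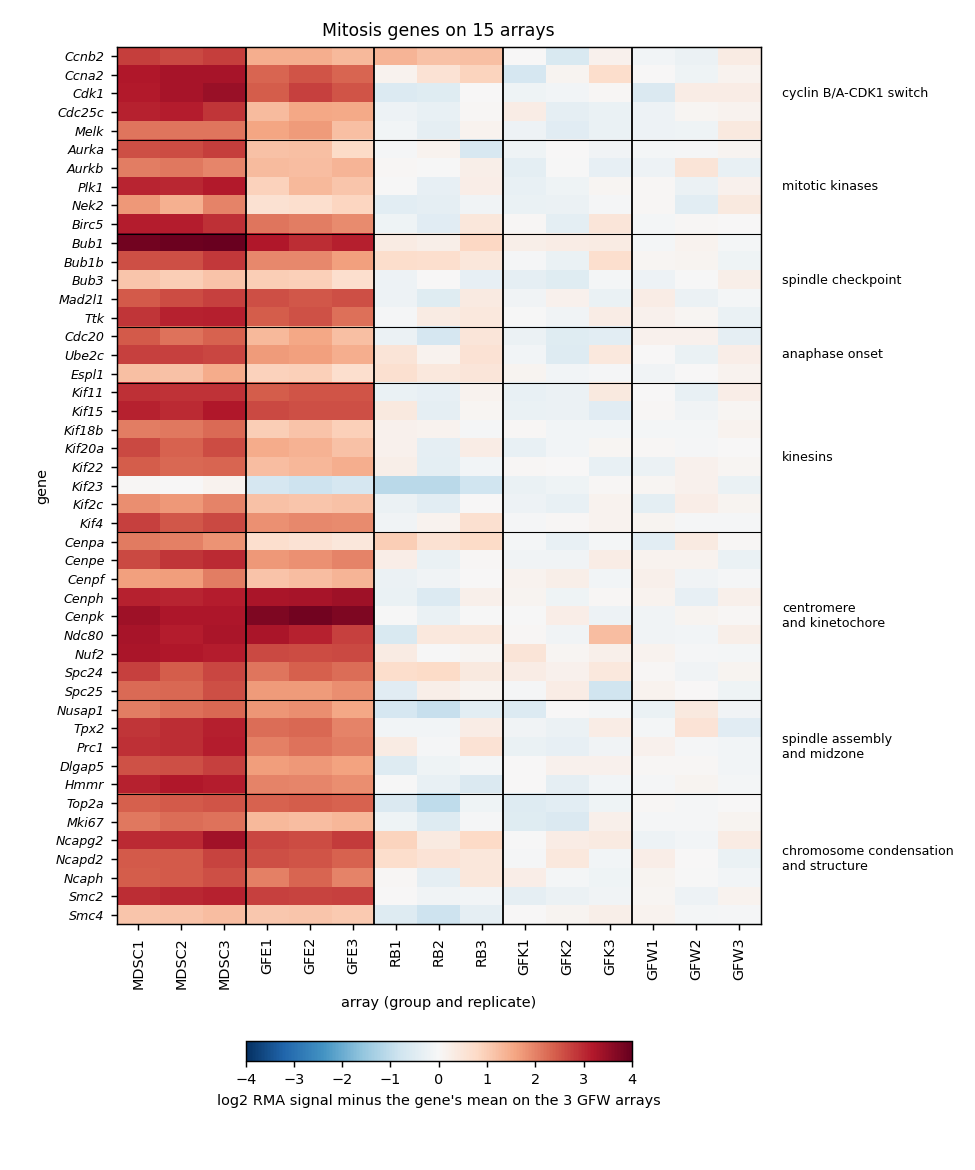
Heat map of the 47 mitosis genes (one per line, by role) on the 15 arrays (columns, by group), coloured by log2 RMA signal minus the gene's mean on the 3 GFW arrays. MDSC and GFE arrays are raised for nearly all genes, Kif23 is lowered on GFE and RB arrays, and RB, GFK and GFW arrays differ little for most genes.

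The cyclins and CDK1 set the pattern. Ccna2, cyclin A2, was at 10.71, 10.78 and 10.80 on the MDSC arrays, 9.82, 10.01 and 9.82 on the GFE arrays, 7.63, 8.05 and 8.38 on the RB arrays, 6.80, 7.60 and 8.20 on the GFK arrays and 7.50, 7.33 and 7.64 on the GFW arrays. The cultured cells stood apart from all fresh arrays, and the fresh groups overlapped. Cdk1, the kinase that cyclins A and B activate, was at 9.91, 10.04 and 10.19 on the MDSC arrays, 9.17, 9.50 and 9.27 on the GFE arrays, 6.21, 6.28 and 6.77 on the RB arrays, 6.59, 6.62 and 6.79 on the GFK arrays and 6.17, 7.04 and 7.03 on the GFW arrays. The lowest GFE array lay far above the highest fresh array, and the fresh groups overlapped. Ccnb2, cyclin B2, was at 10.50, 10.39 and 10.49 on the MDSC arrays, 9.20, 9.17 and 9.03 on the GFE arrays, 9.09, 8.90 and 8.94 on the RB arrays, 7.74, 7.11 and 7.89 on the GFK arrays and 7.63, 7.50 and 8.07 on the GFW arrays. Fresh RB cells came close to GFE cells for this cyclin: the highest RB array lay above the lowest GFE array, and every RB array lay above every GFW array. Cdc25c, a phosphatase that activates CDK1, was at 8.20, 8.29 and 8.01 on the MDSC arrays, 6.40, 6.68 and 6.67 on the GFE arrays, 4.94, 4.85 and 5.18 on the RB arrays, 5.44, 4.78 and 4.87 on the GFK arrays and 4.92, 5.22 and 5.27 on the GFW arrays. MDSC arrays were apart from GFE arrays, and the fresh values lay near or under the 40th percentile of 5.34 to 5.58.

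Among the mitotic kinases, Plk1, which acts on centrosomes and kinetochores, was at 10.06, 10.01 and 10.18 on the MDSC arrays, 7.92, 8.30 and 8.11 on the GFE arrays, 7.0, 6.67 and 7.27 on the RB arrays, 6.72, 6.83 and 7.09 on the GFK arrays and 7.06, 6.76 and 7.19 on the GFW arrays. The 3 tiers did not overlap, with a wide step between MDSC and GFE. Aurka, the Aurora kinase of the spindle poles, was at 9.34, 9.37 and 9.51 on the MDSC arrays, 7.92, 7.97 and 7.53 on the GFE arrays, 6.69, 6.88 and 6.12 on the RB arrays, 6.56, 6.77 and 6.62 on the GFK arrays and 6.67, 6.71 and 6.87 on the GFW arrays. The last RB and the last GFE array were lower than the others of their group, and the tiers held. Aurkb, the Aurora kinase of the centromere, was at 9.64, 9.71 and 9.55 on the MDSC arrays, 8.86, 8.84 and 8.94 on the GFE arrays, 7.65, 7.58 and 7.82 on the RB arrays, 7.21, 7.58 and 7.27 on the GFK arrays and 7.38, 8.12 and 7.29 on the GFW arrays. The second GFW array was nearer the GFE values than the other GFW arrays were. Birc5, survivin, a partner of AURKB, was at 9.98, 10.0 and 9.76 on the MDSC arrays, 8.97, 8.88 and 8.73 on the GFE arrays, 6.68, 6.39 and 7.29 on the RB arrays, 6.90, 6.45 and 7.33 on the GFK arrays and 6.77, 6.91 and 6.86 on the GFW arrays. All fresh arrays were below the GFE arrays and spread more widely in RB and GFK than in GFW.

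For the checkpoint and anaphase, Bub1, a checkpoint kinase at kinetochores, was at 9.62, 9.66 and 9.69 on the MDSC arrays, 8.95, 8.71 and 8.86 on the GFE arrays, 6.08, 5.97 and 6.59 on the RB arrays, 5.97, 6.03 and 6.08 on the GFK arrays and 5.68, 5.89 and 5.68 on the GFW arrays. MDSC and GFE arrays were far above the fresh ones, and RB and GFK arrays were slightly above GFW arrays. Cdc20, the activator of APC/C, was at 9.14, 8.87 and 9.05 on the MDSC arrays, 7.98, 8.24 and 7.90 on the GFE arrays, 6.44, 6.0 and 7.15 on the RB arrays, 6.46, 6.19 and 6.26 on the GFK arrays and 6.85, 6.87 and 6.34 on the GFW arrays. The tiers did not overlap, and the RB arrays spread the most. Among chromosome genes, Top2a, the topoisomerase that untangles sister chromatids, was at 10.51, 10.56 and 10.63 on the MDSC arrays, 10.45, 10.53 and 10.48 on the GFE arrays, 7.51, 7.08 and 7.92 on the RB arrays, 7.60, 7.70 and 7.93 on the GFK arrays and 8.14, 8.06 and 8.12 on the GFW arrays. MDSC and GFE overlapped, and the GFW arrays lay above the RB and GFK arrays. Mki67, the proliferation marker Ki-67 that coats mitotic chromosomes, was at 10.69, 10.82 and 10.77 on the MDSC arrays, 9.89, 9.84 and 9.91 on the GFE arrays, 8.43, 8.08 and 8.54 on the RB arrays, 8.12, 8.02 and 8.79 on the GFK arrays and 8.55, 8.54 and 8.70 on the GFW arrays. Its tiers held, with 1 GFK array above the GFW arrays. Ncapg2, a condensin II subunit, was at 8.89, 8.90 and 9.26 on the MDSC arrays, 8.59, 8.53 and 8.72 on the GFE arrays, 6.79, 6.28 and 6.71 on the RB arrays, 5.91, 6.20 and 6.27 on the GFK arrays and 5.70, 5.80 and 6.24 on the GFW arrays. RB arrays lay above GFW arrays, and both were below the GFE arrays.

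The kinetochore and spindle held the genes with the most unlike patterns. Cenpk, an inner kinetochore protein, was at 8.45, 8.31 and 8.30 on the MDSC arrays, 8.81, 8.94 and 8.80 on the GFE arrays, 5.05, 4.82 and 5.05 on the RB arrays, 5.06, 5.34 and 4.86 on the GFK arrays and 4.93, 5.17 and 5.11 on the GFW arrays. GFE arrays were above MDSC arrays, the reverse of most genes. Cenph, its neighbour in the same complex, was at 9.46, 9.43 and 9.55 on the MDSC arrays, 9.67, 9.68 and 9.77 on the GFE arrays, 6.13, 5.86 and 6.60 on the RB arrays, 6.50, 6.22 and 6.45 on the GFK arrays and 6.53, 6.08 and 6.59 on the GFW arrays. Here too all GFE arrays were above all MDSC arrays. Cenpa, the centromeric histone H3 variant, was at 9.70, 9.65 and 9.42 on the MDSC arrays, 8.32, 8.20 and 8.08 on the GFE arrays, 8.63, 8.23 and 8.41 on the RB arrays, 7.55, 7.34 and 7.55 on the GFK arrays and 7.21, 8.0 and 7.68 on the GFW arrays. RB arrays reached the level of GFE arrays. Hmmr, a spindle assembly protein, was at 9.11, 9.23 and 9.15 on the MDSC arrays, 8.01, 7.98 and 7.89 on the GFE arrays, 6.0, 5.72 and 5.43 on the RB arrays, 6.06, 5.66 and 5.92 on the GFK arrays and 5.99, 6.13 and 5.95 on the GFW arrays. Its 3 tiers did not overlap. Nusap1, which bundles spindle microtubules, was at 9.52, 9.66 and 9.75 on the MDSC arrays, 9.22, 9.31 and 9.01 on the GFE arrays, 6.78, 6.54 and 7.03 on the RB arrays, 6.90, 7.49 and 7.40 on the GFK arrays and 7.19, 7.86 and 7.33 on the GFW arrays. RB arrays lay below GFW arrays, and MDSC arrays were highest. Kif23, the midzone kinesin MKLP1 needed for cytokinesis, was at 9.43, 9.41 and 9.53 on the MDSC arrays, 8.72, 8.56 and 8.73 on the GFE arrays, 8.31, 8.30 and 8.59 on the RB arrays, 9.13, 9.22 and 9.44 on the GFK arrays and 9.45, 9.58 and 9.14 on the GFW arrays. It was the only one of the 47 genes whose fresh arrays, GFW and GFK, overlapped the MDSC arrays, and GFE and RB arrays were lower.

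**Figure D2:**
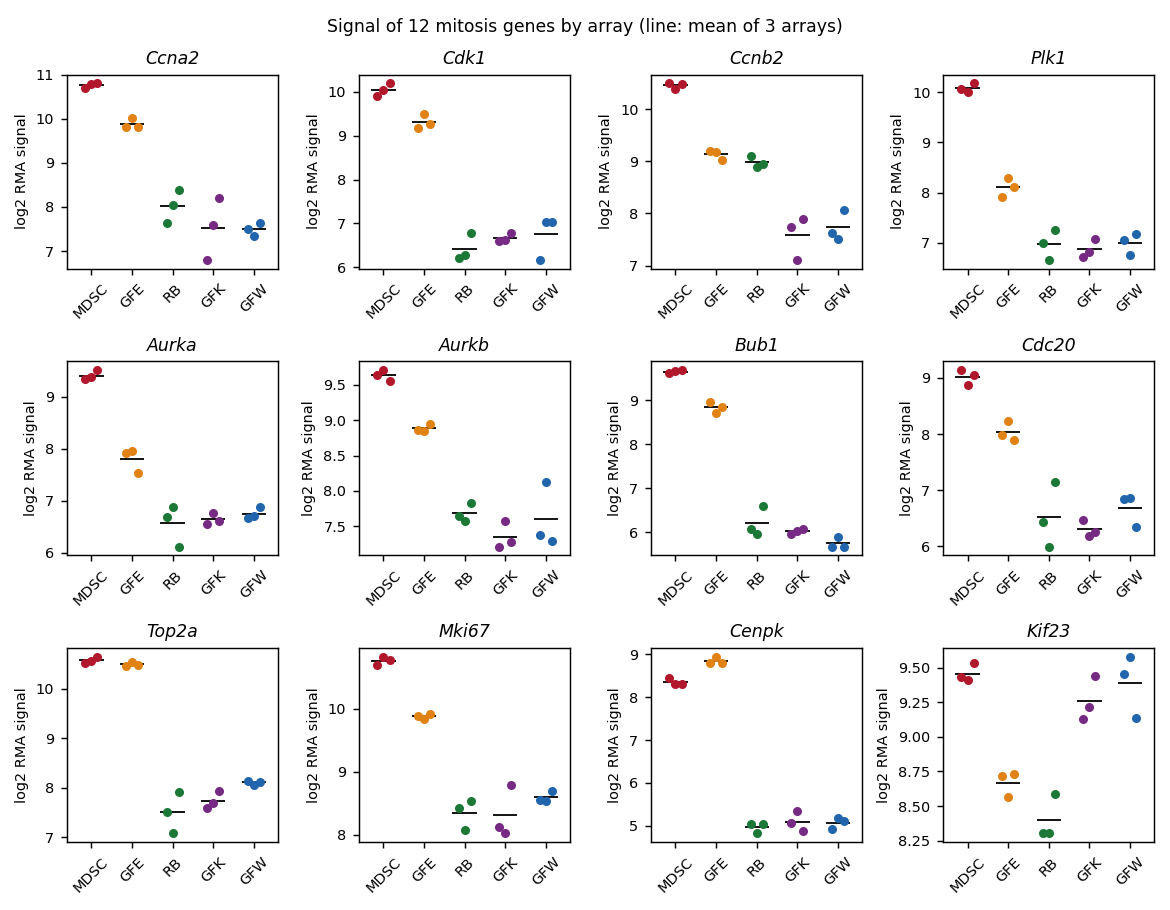
Log2 RMA signal of 12 mitosis genes, 1 point per array in 5 groups of 3, with a line at each group mean. In 10 panels the MDSC and GFE points lie above all fresh-cell points, in the Ccnb2 panel RB points reach the GFE points, and in the Kif23 panel GFW and GFK points lie beside the MDSC points.

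The comparison of GFE with GFW arrays sets cells after 3 days of culture against fresh cells. RB cells carry the same labels as GFW, and GFE was not fitted against RB. For 44 genes every GFE array lay above every RB array. Of the others, Kif23 averaged 8.67 on GFE and 8.40 on RB arrays, Cenpa 8.20 and 8.42, and Ccnb2 9.14 and 8.98. Here rose, fell and after culture therefore mean against GFW. Differences are in log2, where 1 unit is 2-fold, with limma's standard error (SE) for 3 arrays a group. A gene was called where limma's Benjamini-Hochberg adjusted p over the 14822 genes was under 0.05. After culture 46 of the 47 genes were higher and 1, Kif23, was lower. Of all genes tested 35.1% were called higher and 31.9% lower, so most genes of either kind differed between these groups. The median difference of the mitosis genes was 1.82 log2, or 3.54-fold, while the median of all genes was -0.06. At least 2-fold higher calls numbered 42 of 47, against 18.3% of all genes. Every GFE array lay above every GFW array for the 46 genes, against 37.1% of all genes, and below for Kif23, against 37.1%. Of the genes called, Cdc25c and Cenpk are those with a difference built in by the filter.

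By role, all 5 measured genes of the cyclin-CDK1 switch were higher after culture, with a median of at least 1.49. Cdc25c, for which the filter built in a difference, enters it as a lower bound. Cdk1 was 5.92-fold higher (log2 2.57, SE 0.20, adjusted p = 1.75e-08) and Ccna2 5.26-fold. Melk, a kinase of the late cell cycle, differed by 1.49. The 4 mitotic kinases and Birc5 were all higher, with a median of 1.11: Birc5 by 2.01, Aurkb by 1.29, Plk1 by 1.11, Aurka by 1.06 and Nek2, a centrosome kinase, by 0.72. Of the checkpoint genes, all 5 rose, with a median of 2.40. Bub1 was 8.53-fold higher (log2 3.09, SE 0.14, adjusted p = 2.09e-11), Mad2l1, which blocks CDC20, rose by 2.54 and Ttk, the checkpoint kinase MPS1, by 2.40, while Bub3 rose by 0.87. The 3 genes of anaphase onset rose by 1.60 (Ube2c, the APC/C ubiquitin carrier), 1.35 (Cdc20) and 0.84 (Espl1, separase).

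All 9 centromere and kinetochore genes were higher, with a median of 2.26. Cenph was 9.92-fold higher (log2 3.31, SE 0.17, adjusted p = 9.55e-11). Cenpk, for which the filter built in a difference, was at least 13.7-fold higher (log2 at least 3.78). The 4 subunits of the NDC80 complex, which binds microtubules, rose together: Ndc80 by 3.01, Nuf2 by 2.63, Spc24 by 2.26 and Spc25 by 1.74. Cenpe, a kinetochore motor, and Cenpf, a large kinetochore protein, rose by 1.85 and 1.24. Cenpa showed the smallest rise of the 46 genes (0.57, SE 0.17, adjusted p = 0.00784). Its call was lost after quantile normalisation of the deposited values (0.34, adjusted p = 0.0894) and without GFW replicate 1 (0.36, adjusted p = 0.050). Condensation genes rose in all 7 cases, with a median of 2.38, among them the condensin core Smc2 (2.73) and its partner Smc4 (1.07). Condensin subunits Ncapg2, Ncapd2 and Ncaph rose by 2.70, 2.48 and 2.10, and Top2a by 2.38. The 5 spindle assembly and midzone genes rose by 1.66 to 2.17, led by Tpx2, an activator of AURKA.

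Kinesins split. The spindle motors Kif15 and Kif11 rose by 2.60 and 2.48, and Kif4, Kif20a, Kif22, Kif2c and Kif18b by 1.03 to 1.87. Kif23 fell by 0.72 (SE 0.13, adjusted p = 1.49e-04), with all GFE arrays below all GFW arrays. Prc1, which bundles the midzone microtubules that Kif23 acts on, rose by 2.07. Racgap1, its partner in the centralspindlin complex and no member of the list, rose by 1.27 (adjusted p = 6.78e-04) and was chosen here after its value was seen. In fresh RB cells Racgap1 was also higher than in GFW, by a larger difference, and Kif23 was also lower than in GFW.

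Markers of other cells moved between the same arrays. Over 10 mature neutrophil genes, all measured, the mean signal was 12.46 to 12.50 on GFW arrays, with all 10 above the 40th percentile, and 5.86 to 6.04 on GFE arrays, with 6 above it. Over 9 of 10 progenitor genes it was 7.24 to 7.31 on GFW and 10.08 to 10.18 on GFE arrays. Kit, the SCF receptor and one of these genes, was at 11.52, 11.41 and 11.36 on GFW and 10.87, 10.89 and 10.79 on GFE arrays. Over 9 of 10 granulocyte precursor genes the mean was 7.37 to 7.57 on GFW and 6.16 to 6.38 on GFE arrays, where Elane, neutrophil elastase, was at 5.18 to 5.87. Over 8 of 14 erythroid genes it was 5.99 to 6.13 on GFW and 5.89 to 5.94 on GFE arrays. The part of these cell types in the mitosis gene differences was not tested. With each array's median subtracted, all genes shifted by over 0.1 in this comparison (median 0.07 against -0.06), and 5783 genes were called higher and 3286 lower, against 5198 and 4733. The counts of mitosis genes were then again 46 higher and 1 lower.

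MDSC arrays were set against each kind of fresh wild-type cell. All 47 genes were higher than in RB cells, where 27.4% of all genes were called higher and 20.7% lower, and the median difference was 2.50 against 0.04 for all genes. Against GFW, 46 genes were higher and none lower, with 32.3% of all genes called higher and 30.0% lower, and a median of 2.63 against -0.08. Kif23 was the gene not called against GFW (0.07, 95% interval -0.21 to 0.34). MDSC arrays lay wholly above RB arrays for all 47 genes (31.3% of all genes were wholly above and 24.1% wholly below) and wholly above GFW arrays for 46 (34.4% of all genes above and 36.3% below). These comparisons share the MDSC arrays and are not independent. Cdc25c and Cenpk, for which the filter built in a difference, are among the genes counted in both. With each array's median subtracted, the calls against GFW were 5306 higher and 3094 lower over all genes, against 4781 and 4444, and the all-gene median was 0.04.

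Against RB the largest differences, leaving aside the lower bound of Cenpk, were those of Cdk1, Hmmr and Bub1. Cdk1 was 12.4-fold higher than in RB (log2 3.63, SE 0.20, adjusted p = 6.31e-10) and 9.85-fold higher than in GFW. Bub1 was 15-fold higher than in GFW (log2 3.91, SE 0.14, adjusted p = 2.62e-12) and 10.9-fold higher than in RB. Hmmr differed by 3.45 from RB (SE 0.14, adjusted p = 1.22e-11) and by 3.14 from GFW. Cenpk was higher by at least 3.28 than in GFW, and Cdc25c by at least 3.03, with a difference built in for both by the filter.

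Genes of every role were higher. Against RB, role medians ran from 2.30 for anaphase onset to 2.87 for spindle assembly and midzone, with 2.84 for the mitotic kinases and 2.74 for the cyclin-CDK1 switch. Against GFW they ran from 2.33 for anaphase onset to at least 3.03 for the cyclin-CDK1 switch. The latter median is the value of Cdc25c, a lower bound with a difference built in by the filter. The smallest differences from RB were those of Espl1 (0.78), Kif23 (1.06), Cenpa (1.17), Bub3 (1.25) and Ccnb2 (1.48), all of them called higher. Granulocyte precursor genes were also higher: the mean over 9 of 10 was 10.40 to 10.48 on MDSC arrays, with all 9 above the 40th percentile, and 7.58 to 7.80 on RB arrays. Elane was at 11.44, 11.38 and 11.19 on MDSC arrays and 7.32, 6.90 and 7.46 on RB arrays. The mean over 9 monocyte genes was 7.56 to 7.66 on MDSC and 11.54 to 11.60 on RB arrays. The part of these cells in the differences was not tested.

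Both cultures were then compared with each other. MDSC had 34 mitosis genes higher than GFE, 1 lower and 12 not called, while 16.6% of all genes were called higher and 18.9% lower. The median difference was 0.75, or 1.68-fold, against -0.0035 for all genes, and 12 genes were at least 2-fold higher, against 5.29% of all genes. MDSC arrays lay wholly above GFE arrays for 41 genes (24.9% of all genes) and wholly below for Cenph and Cenpk (27.9% of all genes). Starting cells, medium, growth factors and array set all differ between these groups and cannot be told apart.

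The kinases and the CDK1 activator led. Plk1 was 3.92-fold higher in MDSC (log2 1.97, SE 0.16, adjusted p = 6.34e-08). Aurka was 3.04-fold higher (log2 1.60, SE 0.17, adjusted p = 1.20e-06) and Cdc25c 3.00-fold (log2 1.58, SE 0.16, adjusted p = 1.17e-06). Cenpa, Ccnb2, Hmmr, Kif20a, a midzone kinesin, Ube2c and Kif18b followed with 1.39, 1.32, 1.21, 1.20, 1.12 and 1.12. The 4 kinases and Birc5 were all called (median 1.05), all 5 switch genes (0.88), all 3 anaphase genes (0.98), 7 of 8 kinesins (0.77) and 4 of 5 spindle genes (0.94). Fewer were called higher among the checkpoint genes, 3 of 5 (0.60). Of the 9 centromere and kinetochore genes, 6 were higher and 1 lower (0.54).

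Chromosome condensation genes differed least: 1 of 7 was called, Mki67 (0.88), and the median was 0.28. Top2a differed by 0.08 (95% interval -0.26 to 0.42), Ncapd2 by 0.06 (-0.27 to 0.38) and Smc4 by 0.09 (-0.17 to 0.34). The differences of Smc2, Ncaph and Ncapg2 were 0.28, 0.39 and 0.40. Mad2l1 (0.05, interval -0.35 to 0.45), Bub3 (0.21), Ndc80 (0.22), Kif11 (0.41) and Nusap1 (0.46) were not called either. Whether the roles differ from each other was not tested. Cenpk was lower in MDSC by 0.49 (SE 0.12, adjusted p = 0.00514) and Cenph was not called (-0.23, interval -0.59 to 0.13). Calls near the threshold moved with the setting: Spc24 (0.35) and Spc25 (0.63) lost theirs in several, and Espl1 and Kif15 without MDSC replicate 3 (adjusted p = 0.0522 and 0.0642). Progenitor genes had a mean of 6.55 to 6.63 on MDSC and 10.08 to 10.18 on GFE arrays, the opposite order to most mitosis genes. Granulocyte precursor genes had a mean of 10.40 to 10.48 on MDSC and 6.16 to 6.38 on GFE arrays, with all 9 measured called higher in MDSC (median 3.98). Mature neutrophil genes had a mean of 8.89 to 8.93 on MDSC and 5.86 to 6.04 on GFE arrays, with 8 of 10 called higher and 1 lower (median 3.33). The part of these cell types in the differences was not tested.

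**Figure D3:**
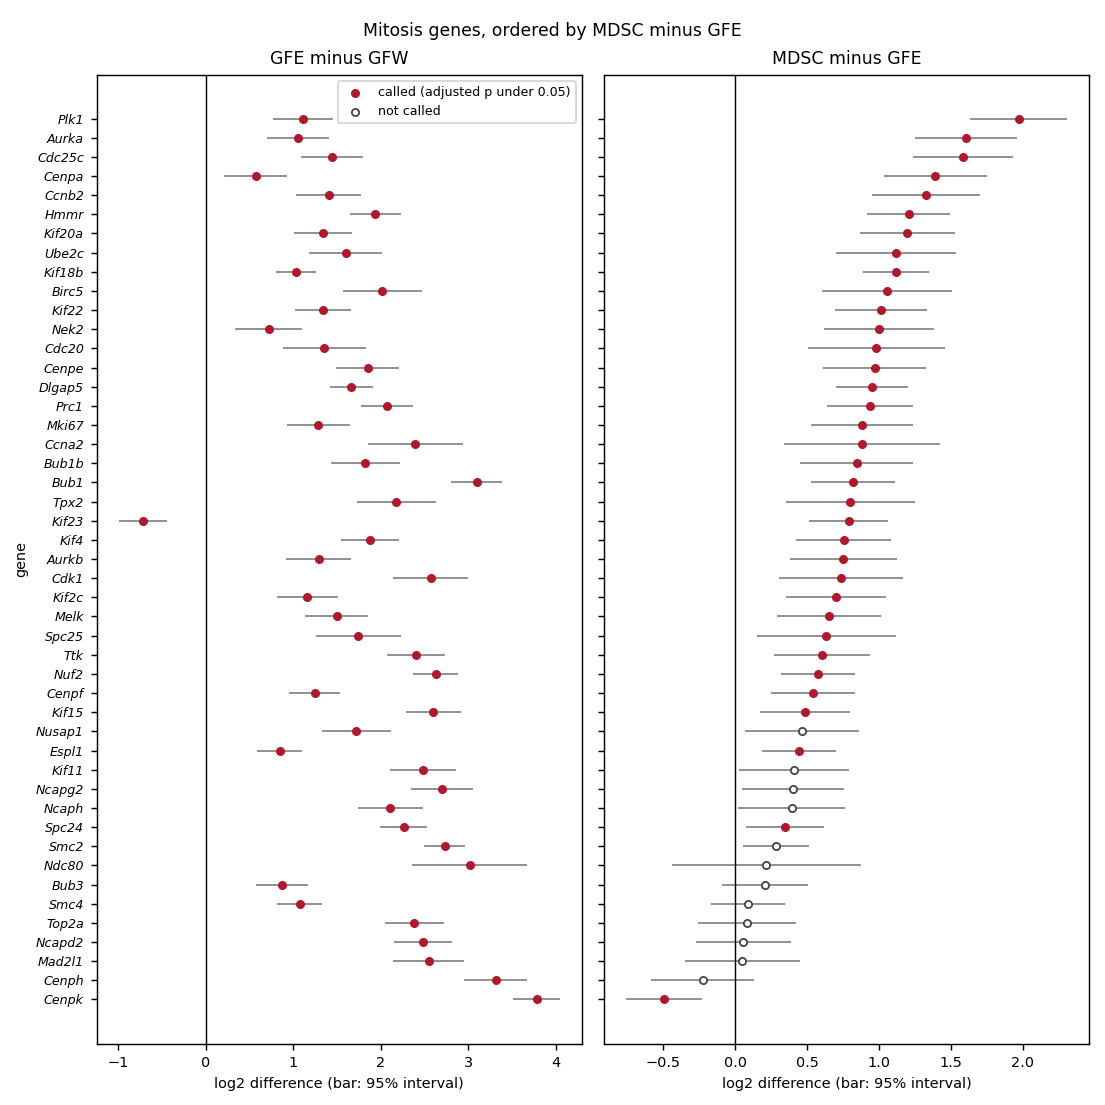
Log2 differences of the 47 mitosis genes with 95% intervals (bars) for GFE minus GFW (left) and MDSC minus GFE (right), ordered by the right panel, with filled points where limma's adjusted p is under 0.05. Kif23 alone lies left of 0 in the left panel. Plk1, Aurka and Cdc25c lead the right panel, where Cenpk is the only called gene left of 0.

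The RB and GFW groups carry the same labels, yet 25.8% of all genes were called higher and 26.5% lower in RB. Of the mitosis genes 8 were higher in RB, 4 were lower and 35 were not called, and the median was -0.04 (0.02 with each array's median subtracted) against -0.06 for all genes. Both shares of the mitosis genes, 8 and 4 of 47, were below those of all genes. Every RB array lay above every GFW array for 8 of the 47 genes and below for 4, against 26.4% and 28.8% of all genes.

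Ccnb2 was 2.37-fold higher in RB (log2 1.24, SE 0.18, adjusted p = 2.83e-05), Cenpa was higher by 0.79 (SE 0.17, adjusted p = 0.00109) and Ncapg2 by 0.68 (SE 0.17, adjusted p = 0.00330). Spc24, the checkpoint genes Bub1b and Bub1, the condensin subunit Ncapd2 and the separase gene Espl1 were higher by 0.47 to 0.62. Kif23 was lower by 0.99 (SE 0.13, adjusted p = 1.20e-05), Nusap1 by 0.68 (SE 0.19, adjusted p = 0.00641), Top2a by 0.60 (SE 0.16, adjusted p = 0.00513) and Smc4 by 0.57. Ccna2, the other cyclin, differed by 0.53 (interval -0.01 to 1.07) and was not called, and neither was Cdk1 (-0.33, interval -0.76 to 0.11). Without RB replicate 3 the genes called lower numbered 7 in place of 4, with Cdc20, Cenph and Dlgap5 added. Bub1 lost its call when only these 6 arrays were fitted (adjusted p = 0.0606) and Bub1b without GFW replicate 3 (0.0506). Mature neutrophil genes had a mean of 8.52 to 8.67 on RB and 12.46 to 12.50 on GFW arrays, and monocyte genes 11.54 to 11.60 and 8.47 to 8.48. The part of these cell types in the 12 calls was not tested.

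The comparison of GFK with GFW asks about the arrays labelled iNOS knockout. None of the 47 mitosis genes was called in either direction by limma, where 1.30% of all genes were called higher and 0.317% lower. At an unadjusted p under 0.05, 2 were higher and 4 lower, 12.8% of the mitosis genes against 11.8% of all genes, and the smallest adjusted p was 0.358. The count was 0 under every alternative that was run. The median difference was -0.08 against -0.01 for all genes, with 17 genes positive and 30 negative. The 95% intervals of 46 genes lay within 2-fold either way, and that of Ndc80, whose GFK arrays were at 6.32, 6.12 and 7.50, was -0.29 to 1.03. The interval for Cdk1 was -0.52 to 0.35, for Plk1 -0.46 to 0.21 and for Mki67 -0.64 to 0.07. The arrays did not overlap for 2 genes above and 4 below, against 8.26% and 7.91% of all genes. B and plasma cell genes had a mean of 8.01 to 8.16 on GFK and 7.10 to 7.33 on GFW arrays, with 9 of 10 listed genes measured, and their part was not tested.

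**Figure D4:**
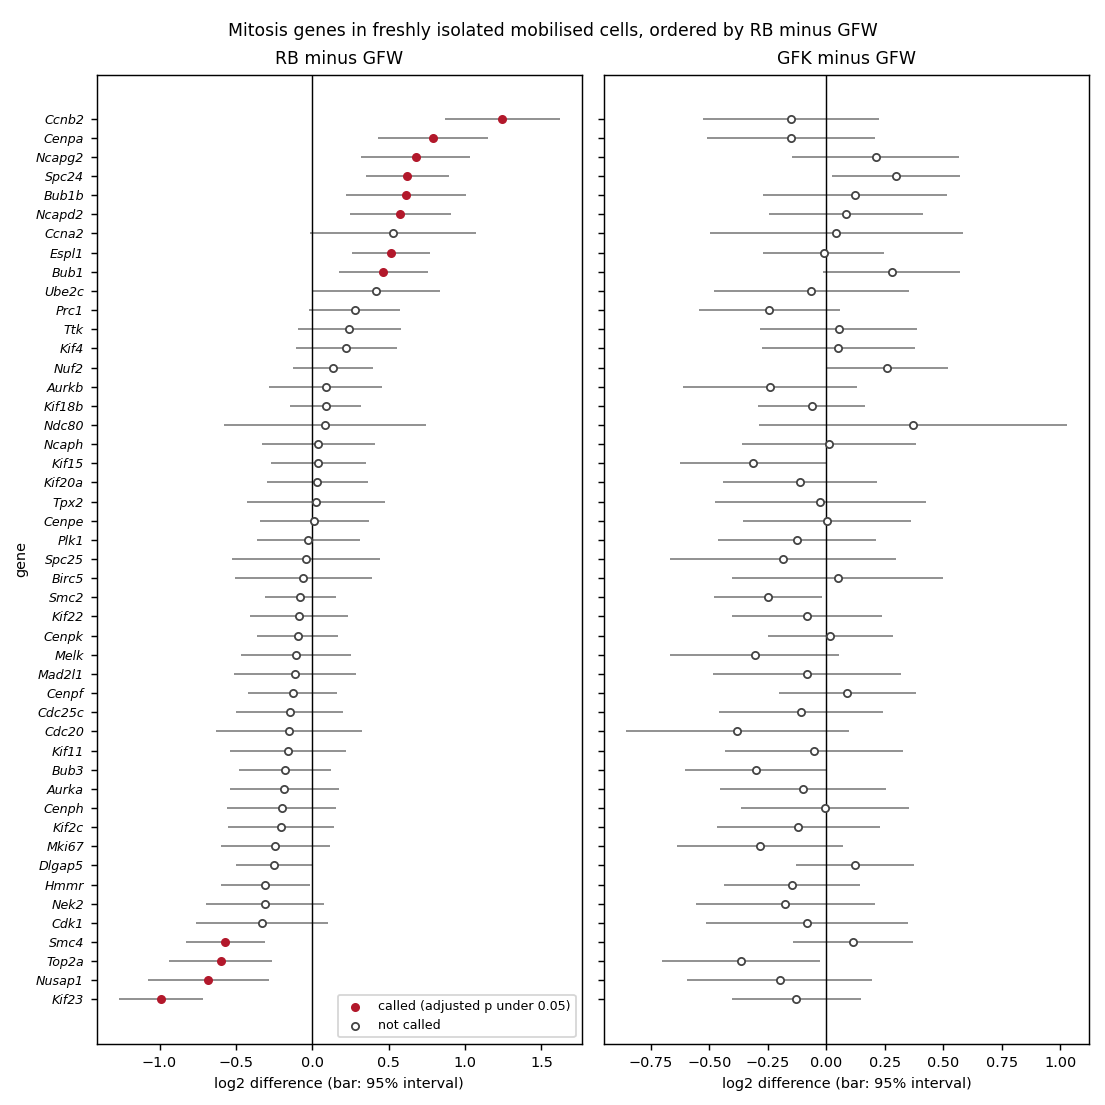
Log2 differences of the 47 mitosis genes with 95% intervals (bars) for RB minus GFW (left) and GFK minus GFW (right), ordered by the left panel, with filled points where limma's adjusted p is under 0.05. In the left panel 8 genes led by Ccnb2 are called to the right and 4 ending with Kif23 to the left. No point is filled in the right panel, whose axis is narrower.

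A further list held other genes of mitosis, 92 of 104 of them tested. After culture 75 were higher and 4 lower in GFE than in GFW, with a median of 1.51, where 35.1% of all genes were higher and 31.9% lower. Wee1, the kinase that restrains CDK1, was higher by 3.37, Pbk, a mitotic kinase, by 3.07 and Cenpw, a kinetochore protein, by 2.96. Lower were Cdc25b, a phosphatase that starts CDK1 activation (by 1.23), Pttg1, securin, the inhibitor of separase (by 0.96), and Haus8 of the augmin complex (by 0.83). In MDSC 80 were higher and 2 lower than in RB (median 1.40), where 27.4% of all genes were higher and 20.7% lower. Against GFW 82 were higher and 3 lower (median 1.62), where 32.3% of all genes were higher and 30.0% lower. Pttg1 was lower in MDSC against RB and GFW, by 0.55 and 1.57. It was at 9.76, 9.64 and 9.95 on GFW, 8.69, 8.68 and 8.92 on RB, 8.86, 8.90 and 8.70 on GFE and 8.26, 8.24 and 8.13 on MDSC arrays, so that the fresh GFW cells had the highest signal of these groups. Between cultures 33 were higher and 14 lower in MDSC than in GFE (median 0.29), where 16.6% of all genes were higher and 18.9% lower. Cdc25b was higher by 1.55 and Cdc27, an APC/C subunit, lower by 0.98. RB had 30 of 92 higher and 10 lower than GFW, where 25.8% of all genes were higher and 26.5% lower, and Racgap1 had the largest difference (1.61). GFK had 1 lower, Incenp, the scaffold of AURKB (-0.58, limma adjusted p = 0.0334), where 0.317% of all genes were lower.

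Regulators of mitotic transcription, 17 genes, also differed. After culture 13 were higher and 1 lower, against 35.1% and 31.9% of all genes. Lin9, a core protein of the DREAM and MYBL2 complexes, was higher by 2.45, E2f8 by 2.09 and E2f3 by 1.61, and E2f2 was lower by 1.40. In MDSC against GFW the count was 13 and 1, with E2f8 higher by 2.93, where 32.3% of all genes were higher and 30.0% lower. Against RB it was 11 and 1, where 27.4% of all genes were higher and 20.7% lower, and 1 of these calls rests on a lower bound. Foxm1 was at 7.95, 8.10 and 7.96 on the MDSC arrays, 7.38, 7.72 and 7.22 on the GFE arrays, 6.61, 5.72 and 6.19 on the RB arrays, 5.96, 5.77 and 6.06 on the GFK arrays and 6.28, 6.09 and 6.32 on the GFW arrays. MDSC arrays were above GFE arrays (difference 0.56, adjusted p = 0.0239), and GFE arrays above all fresh arrays. Mybl2 was at 8.74, 8.81 and 8.74 on the MDSC arrays, 8.20, 8.35 and 8.10 on the GFE arrays, 6.14, 7.15 and 6.76 on the RB arrays, 7.03, 6.98 and 6.64 on the GFK arrays and 7.12, 7.23 and 7.19 on the GFW arrays. It had the same 3 tiers, and MDSC exceeded RB by 2.08. GFK differed from GFW in 1 regulator, Tfdp1, the E2F partner DP1, lower by 0.60 (limma adjusted p = 0.00775). Of all genes 0.317% were lower there.

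Genes that act before mitosis were mixed. Of 9 tested G1 genes, 6 were higher and 2 lower after culture, against 35.1% and 31.9% of all genes, with Cdk6, Cdk4 and Myc higher by 4.30, 3.10 and 2.82 and Ccnd3, cyclin D3, lower by 1.33. In MDSC against GFE 3 were higher and 3 lower, where 16.6% of all genes were higher and 18.9% lower. Ccne1, cyclin E1, was higher by 1.31, while the G1 kinase Cdk6 was lower by 1.30 and Ccnd2, cyclin D2, by 0.88, the opposite order to Plk1 and Aurka. Ccnd2 was the 1 G1 gene called in GFK against GFW, higher by 0.65 (limma adjusted p = 0.0234), where 1.30% of all genes were higher. Of 16 tested cell cycle brakes, 4 were higher and 7 lower after culture, against 35.1% and 31.9% of all genes. Btg1 and Btg2, antiproliferative genes of resting cells, fell by 3.57 and 3.40, and Cdkn2d, the CDK4/6 inhibitor p19, by 2.62. Cdkn1a, the CDK inhibitor p21, rose by 1.94 and was highest in MDSC, at 11.26, 11.26 and 11.23, against 8.30, 8.78 and 8.67 on GFW arrays. Cdkn1b, the CDK inhibitor p27, was lower in MDSC than in GFW by 2.89. No brake was called in GFK against GFW by limma.

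**Figure D5:**
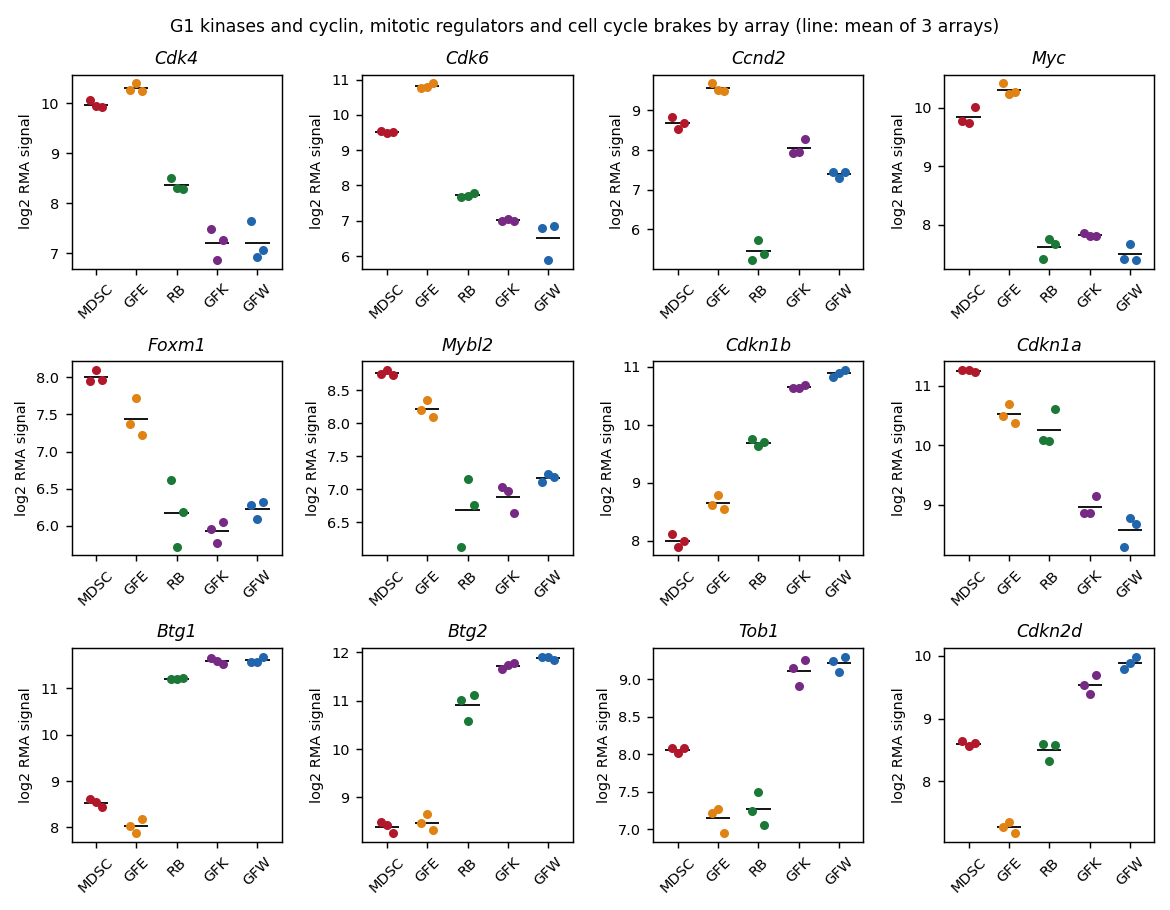
Log2 RMA signal of 12 G1, regulator and brake genes, 1 point per array in 5 groups of 3, with a line at each group mean. Cdk4, Cdk6, Ccnd2 and Myc are highest in GFE, Foxm1, Mybl2 and Cdkn1a in MDSC, and Btg1, Btg2 and Cdkn1b are lowest in the cultured cells.

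Differences were also set beside the promoters. The 28 measured genes with a CHR element in a window had a median GFE minus GFW difference of 1.67, and the 11 with a window and none had 2.10. For MDSC minus GFE the medians were 0.74 and 0.57. The ranges overlapped widely: with the element, the GFE minus GFW values ran from the -0.72 of Kif23 to the 3.01 of Ndc80, and without it from 0.72 to at least 3.78, the bound of Cenpk. The start regions of Ccnb2, Cdk1, Cdc20 and Kif23 all hold TTTGAA near the start. Kif23 was lower on GFE than on GFW arrays, and the other 3 were higher. The part of the element in the differences was not tested.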

How the data were processed

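RNA of 15 samples was hybridised to 15 single-colour arrays, 3 in each of 5 groups. The deposited values are log2 signals that the authors made with oligo and RMA (background correction, quantile normalisation and probe set summary), per the submitters' processing notes; the sources used here do not give versions. Of 41345 probe sets, 16010 had no gene symbol and 1814 had several. The 23521 others were used, and 23328 of them matched RefSeq (GRCm38.p6) by gene identifier. Where a gene had several, the one with the highest mean was kept. Genes above the array's 40th percentile (5.34 to 5.58) on at least 3 arrays were kept, 14822 of 22180. Where the lower group's mean ranked under that percentile, the difference is a lower bound.

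Group means over all 15 arrays were estimated in R 4.3.3 by limma 3.58.1 (lmFit, eBayes; 10 residual degrees of freedom and 5.33 prior ones). Tests were 2-sided, with Benjamini-Hochberg adjustment over all genes kept. Tested on simulated data for GFE minus GFW (14822 genes), the fit recovered 99% of 4-fold and 89% of 2-fold changes with 15 false calls. Tables and figures used Python 3.11.15, numpy 2.4.6, pandas 2.3.3 and matplotlib 3.10.9. The number of arrays limits the precision. The members and lists were chosen with earlier results of these data known. Values on every array are given for 11 measured genes picked by role and for the 3 called members with the largest differences in each direction of a comparison; members not called or called against the majority are named. Of other lists up to 3 called genes per direction and comparison are named. Same-numbered arrays of different groups did not deviate together (correlations of deviations from -0.09 to 0.04 over 18 pairs of groups and numbers). No pairing by number was thus seen, but 3 arrays a group cannot exclude a weak one. Alternatives covered the filter, probe set choice, scaling, arrays in the fit, replicate block, eBayes settings, a 1.5-fold threshold and leaving out each array.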

Additional observations from a re-analysis of the deposited data

How the results depend on the processing

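In 9 alternative settings and 6 leave-outs per comparison no difference of a mitosis gene that was called in the main setting changed sign. Tested against a 1.5-fold difference (limma treat), fewer genes passed: for GFE minus GFW 42 higher in place of 46, without Cenpa, Nek2, Bub3 and Espl1, and 0 lower in place of 1, for MDSC minus RB 46 higher in place of 47, without Espl1, for RB minus GFW 1 higher in place of 8 and 1 lower in place of 4, and for MDSC minus GFE 9 higher in place of 34 and 0 lower in place of 1. The threshold is stricter there, and the count for MDSC minus GFW was again 46. Leaving out 1 array at a time, GFE minus GFW had 45 to 46 higher and 1 lower, RB minus GFW 8 to 10 higher and 4 to 7 lower, and MDSC minus GFE 30 to 33 higher and 1 lower. The counts for MDSC minus RB (47 and 0), MDSC minus GFW (46 and 0) and GFK minus GFW (0 and 0) did not move with any array left out. The median difference ranged from 1.72 to 1.88 for GFE minus GFW, -0.11 to 0.07 for RB minus GFW, 2.47 to 2.66 for MDSC minus RB, 2.58 to 2.70 for MDSC minus GFW, 0.71 to 0.76 for MDSC minus GFE and -0.15 to -0.0025 for GFK minus GFW. With the replicate number as a block (replicate block), MDSC minus GFE had 35 genes higher in place of 34, gaining Kif11 (adjusted p = 0.0422) and Ncapg2 (0.0371) and losing Spc24 (0.0631), and the other counts did not change. With only the 6 arrays of the comparison fitted, 39 were higher. Spc25 lost its call without the filter (adjusted p = 0.0537), where Spc24 did too (0.0646). After quantile normalisation RB minus GFW had 6 genes lower, with Dlgap5 and Mki67 added. Arrays carry no detection flags here, so the 40th percentile stands in for background.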
